A study of Mus musculus with 3 samples.

Results

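The interferon regulatory factors (IRFs) are transcription factors that share a DNA-binding domain and bind repeats of GAAA. The 8 genes described here, Irf1, Irf2, Irf3, Irf4, Irf5, Irf7, Irf8 and Irf9, are the IRF genes that the array's annotation pairs with a probe set of a single gene symbol, out of 19938 named genes. They were chosen by name, and where a gene had several probe sets the one with the highest mean over the arrays represented it. Expression was measured on 3 Affymetrix arrays of CD4+ CD8+ double-positive (DP) thymocytes, purified with magnetic beads against CD8 and, after that, CD4. All 3 samples formed 1 group: wild-type C57BL/6 mice aged 5 to 6 weeks, with a cohort of littermates behind each array. The labels name no other condition, so the IRF genes were compared across the cohorts and with lists of the genes they act with.

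IRF proteins work at several steps of one circuit. Sensors of foreign nucleic acid activate IRF3, IRF5 and IRF7, which switch on the interferon genes. Secreted interferon acts through its receptors and JAK kinases on STAT proteins, and IRF9 joins them in the complex ISGF3, which binds the interferon-stimulated response element (ISRE). Interferon gamma acts on the gamma-activated site (GAS) and induces Irf1, an activator of class I antigen presentation genes, whereas IRF2 competes with IRF1 for the same DNA. IRF4 and IRF8 are the members of blood cells: they bind DNA with partners such as PU.1 and act in B cells, dendritic cells and macrophages, and IRF4 is also induced by T cell receptor signals. In mice, loss of Irf1 lowers the number of mature CD8+ T cells.

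Cohort 1 stood apart from the others. The counts of IRF genes above background and the test of Irf1 are also given without it; values such as the deviations rest on all 3 arrays. Pearson's r over 28944 probe sets was 0.993 between array 1 and either other array and 0.996 between arrays 2 and 3. The female-specific RNA Xist had values of 11.65, 5.40 and 5.68 on arrays 1, 2 and 3. Y-linked genes ran the other way, Eif2s3y with 4.21, 10.29 and 10.08. By these values array 1 held RNA of female mice and arrays 2 and 3 that of male mice. Sex therefore cannot be told apart from any other difference between array 1 and the others. The arrays' values were nearly equally distributed, with medians of 6.75, 6.76 and 6.765 on the log2 scale. All 12 measured DP stage genes were above background on all arrays, Cd4 at 11.74 ± 0.15 and Cd8a at 13.19 ± 0.14 among them (log2 value, mean ± SD, n = 3 here and below). Of these 12 genes 10 were lowest on array 1, against 41.5% of all named genes, with mean deviations from the 3-array mean of -0.14, 0.075 and 0.065 on arrays 1, 2 and 3. Rag2, a subunit of the recombinase, had 8.69, 9.51 and 9.54 (limma, unadjusted p = 0.0045, adjusted p = 0.86). Of 11 measured B cell markers, 10 were above background on no array, and of 18 myeloid and dendritic markers, 13 were. Over all 19938 named genes, 10730 were above background on no array and 43.0% on all arrays. Background was set on each array at the 95th percentile of 118 probe sets for 116 genes that mark organs such as liver, muscle, brain and testis. This limit stood at 7.265, 7.226 and 7.236 on arrays 1, 2 and 3, and a probe set over it was called above background there. A probe set's value also depends on how well its probes bind, so IRF genes were set against this limit and against themselves on the other arrays, and not ranked against each other.

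The promoters of Irf1, Irf8 and Irf2 are shown because they hold the GAS or ISRE letters through which interferon is known to act, and because Irf1 and Irf8 varied most between cohorts among the IRF genes above background. The sequences are those of RefSeq on GRCm38.p6, 250 bases before to 50 after an annotated start, 5′ to 3′ in the direction of transcription. Capitals mark matches to TTCNNNGAA (GAS) and GAAANNGAAA (ISRE core, either strand).
Irf1 promoter (chr11:53769764-53770063, + strand): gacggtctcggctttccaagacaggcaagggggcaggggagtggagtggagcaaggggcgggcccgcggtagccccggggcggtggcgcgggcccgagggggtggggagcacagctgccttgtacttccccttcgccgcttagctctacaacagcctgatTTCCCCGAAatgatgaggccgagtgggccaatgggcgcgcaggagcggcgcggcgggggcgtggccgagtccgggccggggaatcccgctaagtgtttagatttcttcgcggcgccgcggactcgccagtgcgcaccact
Irf8 promoter (chr8:120736108-120736407, + strand): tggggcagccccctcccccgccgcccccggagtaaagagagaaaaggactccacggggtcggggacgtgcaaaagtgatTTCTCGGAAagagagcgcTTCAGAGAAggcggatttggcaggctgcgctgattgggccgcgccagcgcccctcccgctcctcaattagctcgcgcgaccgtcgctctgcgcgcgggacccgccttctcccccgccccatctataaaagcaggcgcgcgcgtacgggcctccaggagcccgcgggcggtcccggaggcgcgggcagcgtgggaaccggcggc
Irf2 promoter (chr8:46739495-46739794, + strand): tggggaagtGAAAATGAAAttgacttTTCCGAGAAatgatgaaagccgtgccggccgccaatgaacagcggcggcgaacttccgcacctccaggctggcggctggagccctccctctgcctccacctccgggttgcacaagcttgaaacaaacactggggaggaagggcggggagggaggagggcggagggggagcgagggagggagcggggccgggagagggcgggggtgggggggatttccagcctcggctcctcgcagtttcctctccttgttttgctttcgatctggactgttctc
All 8 IRF genes matched the promoter table, with 11 windows in all, since Irf1, Irf8 and Irf9 have 2 annotated starts each. GAS letters were in 3 of the 11 IRF windows, which belong to 3 of the 8 genes, and in 8.30% of all 32851 promoter windows. The match TTCCCCGAA of Irf1 began 90 bases before the start. Irf8 held TTCTCGGAA and TTCAGAGAA, which began 171 and 153 bases before it, and Irf2 held TTCCGAGAA. Irf2 was also the only IRF gene with an ISRE core, GAAAATGAAA, which began 241 bases before the start and did not overlap its GAS match. ISRE cores were thus in 1 of the 11 IRF windows and in 3.44% of all windows. A match to the NF-kB consensus, on either strand, lay in Irf1 and in Irf2, 2 of the 11 IRF windows, and in 8.46% of all windows. The TATA letters TATAAA were searched on the coding strand alone. They were in Irf4, Irf7 and Irf8, 3 of the 11 IRF windows, and in 8.32% of all windows. In Irf4, Irf7 and Irf8 that match began 26, 29 and 31 bases before the start. The E-box letters CAGCTG, which E proteins can bind, were in Irf1 and Irf9, 2 of the 11 IRF windows, and in 16.3% of all windows. The ETS letters CCGGAAG, on either strand, were in 0 of the 11 IRF windows and in 8.86% of all. These are matches of letters in short windows; binding was not measured here.

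**Figure D1:**
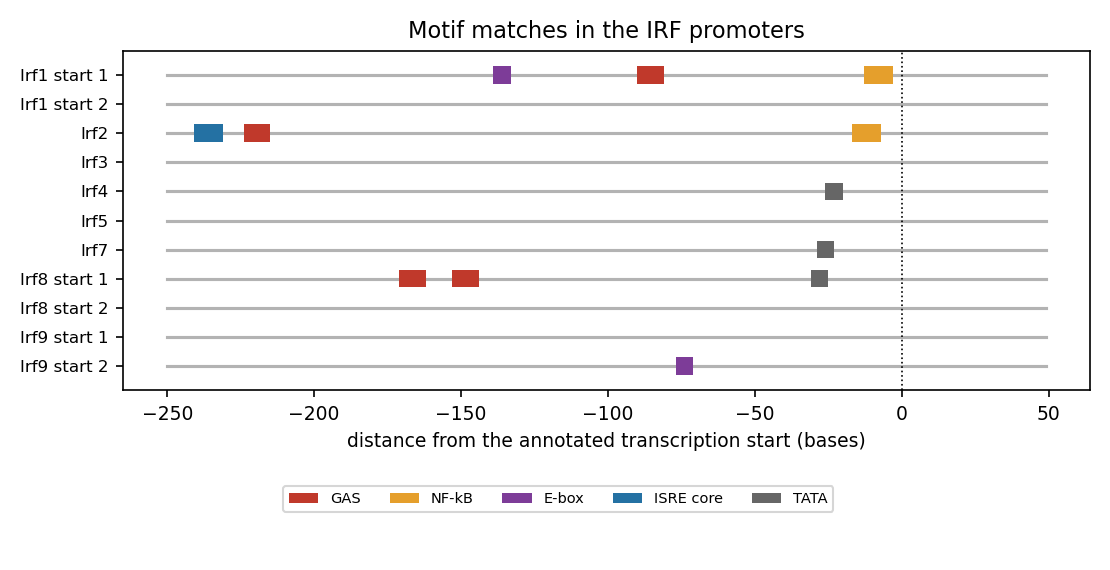
Motif matches in the 11 promoter windows of the 8 IRF genes, by distance in bases from the annotated start at 0; each coloured block is 1 match. GAS blocks lie in Irf1, Irf2 and Irf8, the ISRE core in Irf2, and TATA blocks near the start in Irf4, Irf7 and Irf8.

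Of the 8 IRF genes, 6 (Irf1, Irf2, Irf3, Irf7, Irf8 and Irf9) were above background on all 3 arrays and 2 (Irf4 and Irf5) on none. Over all named genes 43.0% were above background on all arrays. The median of the IRF genes was 8.16 on the log2 scale, against 6.85 for all named genes. With the 99th percentile of the same other-organ genes as the limit, 4 IRF genes remained above it on all arrays (Irf1, Irf2, Irf3 and Irf7), against 35.0% of all named genes. Irf9 then exceeded the limit on 2 arrays and Irf8 on none. With a lower limit, the median of the other-organ genes plus 1 log2 unit, the count was again 6, against 47.2% of all named genes, while Irf5 exceeded that limit on 2 arrays and Irf4 on 1. Leaving out any 1 array left the count at the 95th percentile at 6.

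**Figure D2:**
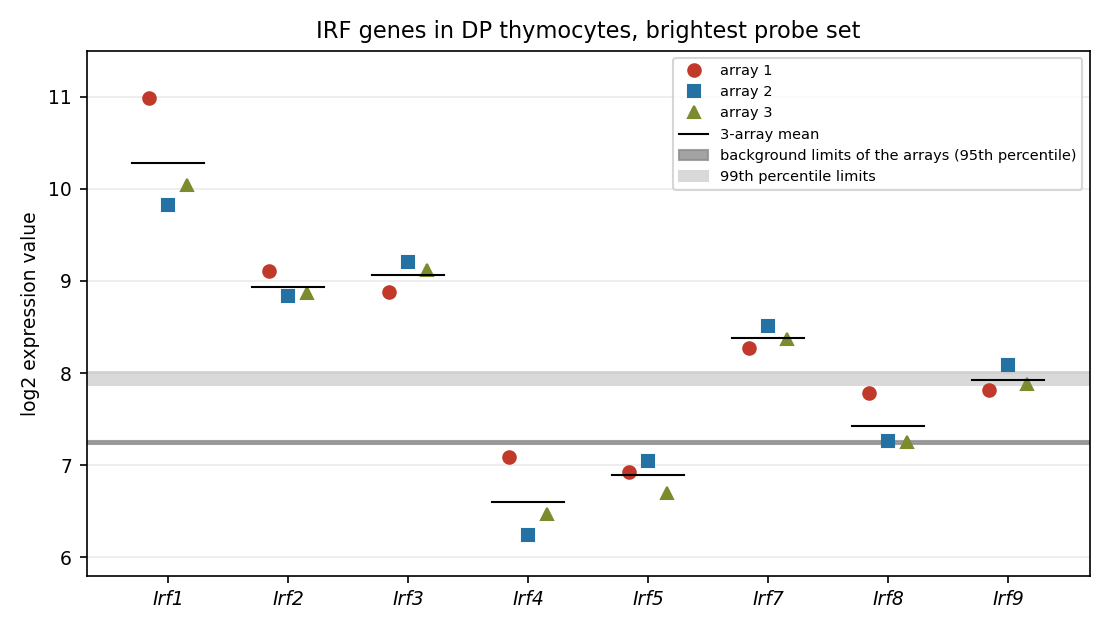
Log2 expression value of the brightest probe set of each IRF gene on arrays 1, 2 and 3 (points), with the 3-array mean (black line). The grey bands span the arrays' background limits at the 95th and 99th percentile; Irf4 and Irf5 lie below the lower band on every array and Irf8 touches it on arrays 2 and 3.

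Irf1, the activator that interferon gamma induces, had values of 10.99, 9.82 and 10.04 on arrays 1, 2 and 3. It exceeded the background limit by at least 2.59 log2 units on every array. Array 1 was the high one: its value was 2.25-fold that of array 2 and 1.93-fold that of array 3, while arrays 2 and 3 differed by 0.22 log2 units. A second Irf1 probe set, annotated to a single cDNA clone, had 6.47, 6.89 and 6.85, was above background on no array and was lowest on array 1, so the high value on array 1 rests on the brighter probe set. Irf2, its competitor on DNA, had 9.11, 8.84 and 8.87. Array 1 was again the highest for Irf2, by 1.21-fold over array 2.

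Irf3, which is activated by phosphorylation and is present before infection, had values of 8.88, 9.21 and 9.12 on arrays 1, 2 and 3. Irf7, the member that interferon itself induces and that amplifies the alpha interferons, had 8.27, 8.51 and 8.37. Irf9, the DNA-binding subunit of ISGF3, had 7.82, 8.09 and 7.88. These 3 genes shared an order that Irf1 and Irf2 did not have: each was highest on array 2 and lowest on array 1, with array 2 over array 1 at 1.26-fold for Irf3, 1.18-fold for Irf7 and 1.21-fold for Irf9. Irf5, which acts downstream of Toll-like receptors in myeloid and B cells, had 6.93, 7.05 and 6.70 and was below the 95th percentile limit on every array.

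Irf4 had values of 7.09, 6.24 and 6.47 on arrays 1, 2 and 3, all below background, with array 1 closest to the limit, at a margin of -0.175 log2 units. Irf8 had 7.78, 7.26 and 7.25. Its margin over the limit was 0.52 log2 units on array 1 and only 0.034 and 0.015 on arrays 2 and 3, so its place above background on those 2 arrays is marginal. Array 1 was 1.43-fold array 2 for Irf8. For Irf4 the difference between these arrays was 0.85 log2 units, between values that are both at background.

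None of the IRF genes passed the test of variation between cohorts. That test compared each probe set's variance over the arrays with the variance usual at its level (limma variance test, Benjamini-Hochberg adjusted p under 0.05 over 28944 probe sets), and it called 6 probe sets, or 0.0207%, of which 4 belong to sex-linked genes. With 3 arrays that test left even a 5.17-fold difference uncalled, that of Gadd45b between arrays 1 and 2 (limma, adjusted p = 0.19). Not passing therefore does not show equal values between cohorts. Irf1 had an SD of 0.62 (limma, unadjusted p = 0.0014, adjusted p = 0.59). Irf4 had an SD of 0.44 and Irf8 of 0.30 (limma, unadjusted p = 0.015 and 0.048, adjusted p = 0.99 for both). The SDs of the other 5 ranged between 0.12 for Irf7 and 0.18 for Irf5. At an unadjusted limma p under 0.05, 3 of 8 IRF genes stood out, against 790 of 19938 named genes and 4.66% of all probe sets. Of 8571 named genes above background on all arrays, 26 (0.303%) had an SD at least as large as that of Irf1, and 271 (3.16%) one at least as large as that of Irf8. Without array 1 the unadjusted p of Irf1 was 0.048 and its adjusted p 0.90 (limma, arrays 2 and 3 alone).

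**Figure D3:**
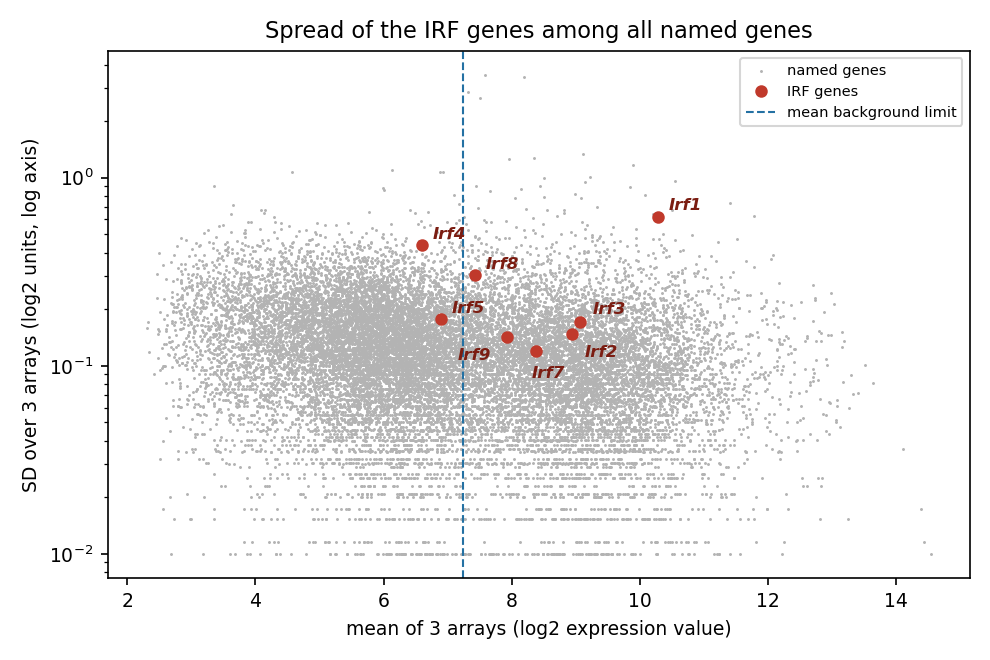
SD over the 3 arrays (log axis, SDs under 0.01 drawn at 0.01) against the 3-array mean for 19938 named genes (grey) and the 8 IRF genes (red); the dashed line is the mean background limit. Irf1, with an SD of 0.62, and Irf4 lie above nearly all genes of their level, Irf8 lies in the upper part of the cloud, and the other 5 lie within it.

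The IRF genes did not move together between cohorts. Their mean deviation from the 3-array mean was 0.17, -0.06 and -0.10 on arrays 1, 2 and 3, against deviations of at most 0.006 in size for all named genes. Irf1, Irf4, Irf8 and Irf2 were highest on array 1 and Irf3, Irf5, Irf7 and Irf9 on array 2, so 4 of 8 were highest on array 1, against 36.4% of all named genes. Array 1 was also the high one for immediate-early genes, which signals such as T cell receptor ligation induce within minutes. Their 20 members deviated on average by 0.66, -0.34 and -0.32, and 18 of 20 were highest on array 1. The 2 exceptions were Egr2, with 7.24, 7.61 and 7.60, and Egr3, with 8.13, 8.21 and 8.14, while Egr1 had 8.55, 8.28 and 8.33. Nfkbia, the inhibitor of NF-kB, was named after its values were seen. It had 12.51, 11.44 and 11.41, an array 1 over array 2 difference of 1.07 log2 units, beside 1.17 for Irf1. Over the 20 genes that difference ran between -0.37 for Egr2 and 2.37 for Gadd45b. No immediate-early gene passed the variance test (14 of 20 had an unadjusted limma p under 0.05). Markers of mature T cells and NK cells were high on array 1 as well, 10 of 11 of them, with mean deviations of 0.24, -0.17 and -0.06. Among these Klf2 had 9.13, 8.43 and 8.41 and Il7r had 8.02, 7.16 and 7.36, and 5 of 11 had an unadjusted limma p under 0.05 but 0 passed the adjusted test. Their summed linear values were 2438, 1783 and 1969 on arrays 1, 2 and 3. Of the 11, 5 were above background on all arrays, near the 43.0% of all named genes, whereas Klrd1, Klrb1c, Tbx21 and Eomes were on none. The part of these patterns, of sex and of the lower DP stage genes on array 1 in the Irf1, Irf4 and Irf8 values was not tested.

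By distance between deviations over the 3 arrays, the genes most like Irf1 among 335 variable named genes were Vegfa, Gch1 and Tob1. Vegfa, a vascular growth factor, had 8.34, 7.25 and 7.43, at a distance of 0.057 log2 units. Gch1, the first enzyme of tetrahydrobiopterin synthesis, had 8.25, 7.13 and 7.42, and Tob1, an antiproliferative factor, had 9.81, 8.76 and 8.94. Likeness over 3 arrays is a weak description, since few patterns are possible.

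Irf4, Irf5 and Irf8 are also genes of B cells and myeloid cells, so markers of those cells bear on their values. The class II genes of antigen-presenting cells were high on array 1 too: Cd74, the invariant chain, had 8.83, 7.27 and 8.05, and H2-Ab1 had 9.26, 7.91 and 8.50. Over the whole list, 3 of 18 myeloid and dendritic markers were above background on all arrays, against 43.0% of all named genes. The summed linear values of the 18 were 2989.9, 1672 and 2203 on arrays 1, 2 and 3. The 4 class II genes Cd74, H2-Aa, H2-Ab1 and H2-Eb1, set apart after their values were seen, summed to 1867, 721 and 1189, and the other 14 markers to 1122.5, 951 and 1014. Csf1r, Itgam, Itgax and Lyz2, the first 4 on the list, were above background on no array. Of the 14 markers outside class II, Cd68 alone exceeded the limit, on arrays 1 and 3, with 7.45, 6.99 and 7.27. Of 11 B cell markers, Cd79b alone was above background on all arrays, at 8.78 ± 0.05, and the summed values were 1054, 917 and 996. Cd79a and Ms4a1 were above background on no array. Jchain varied most of the 11, with 7.24, 5.05 and 6.08, all below background (limma, unadjusted p = 0.00034, adjusted p = 0.35). Among 7 measured plasmacytoid dendritic markers 5 were above background on all arrays, against 43.0% of all named genes. They were Bst2 (8.60 ± 0.08), Ccr9 (12.23 ± 0.10), Ly6d (11.81 ± 0.02), Tcf4 and Pacsin1. Of these, Ccr9 is also on the list of DP stage genes and Bst2 on that of ISGF3 targets, so neither is particular to plasmacytoid dendritic cells here. Tcf4 had 8.65, 8.75 and 8.66 and Pacsin1 had 7.58, 7.96 and 7.94. Cox6a2 was above background on 2 arrays and Siglech on none, with 6.02, 6.12 and 5.95 for Siglech. The summed linear values of these 7 were 9236, 10091 and 9671, with the lowest sum on array 1. Most of each sum came from Ccr9 and Ly6d. The part of such cells in the Irf4 and Irf8 values was not tested. In a bulk sample, fewer cells of a type and less RNA per cell cannot be told apart.

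**Figure D4:**
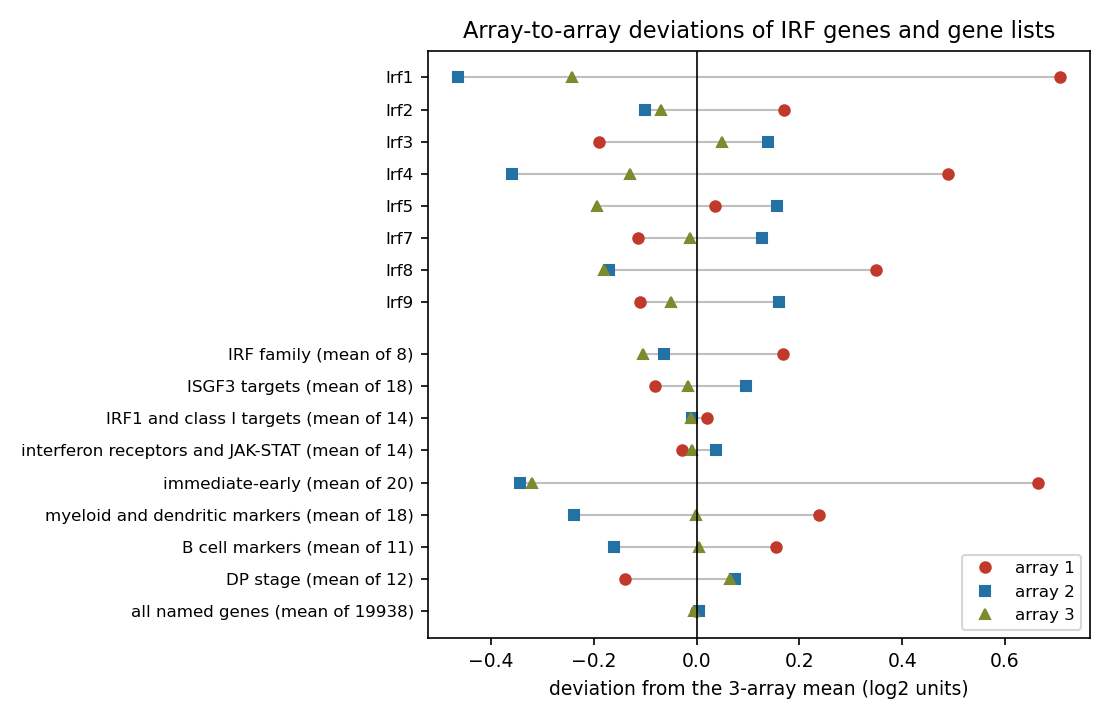
Deviation of each array from the 3-array mean, in log2 units, for the 8 IRF genes (upper block) and as means over gene lists (lower block), with the number of genes averaged. Irf1, Irf4 and Irf8 lie on the right for array 1, as do the immediate-early genes and the myeloid markers. Irf3, Irf7, Irf9, the ISGF3 targets and the DP stage genes lie on the left.

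Of 11 measured corepressors and partners of IRF proteins, 7 were above background on all arrays, against 43.0% of all named genes. The corepressor genes Irf2bp1 and Irf2bp2, whose products bind IRF2, had 8.87 ± 0.10 and 9.89 ± 0.10, and Irf2bpl had 7.87 ± 0.19. Ikzf1, Ikaros, had 11.75 ± 0.05. Spi1 and Spib, which encode PU.1 and its relative Spi-B, the ETS partners of IRF4 and IRF8, had 5.69 ± 0.15 and 6.42 ± 0.27 and were below background on every array. Batf and Batf3, the AP-1 partners of IRF4 and IRF8, exceeded background on 1 array each, Batf on array 1 with 7.56 and Batf3 on array 2 with 7.31.

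Upstream of the IRF proteins, 12 of 17 measured sensors, adaptors and kinases were above background on all arrays, against 43.0% of all named genes. The other 5 stayed under the limit. With the 99th percentile as the limit, 10 of 17 were above background, against 35.0% of all named genes. Tbk1 and Ikbke, the kinases of IRF3 and IRF7, had 9.06 ± 0.09 and 9.34 ± 0.05. Mavs, the adaptor of the RNA sensors, had 8.31 ± 0.10, Sting1, the adaptor of the DNA sensor, had 8.71 ± 0.13 and Myd88, the Toll-like receptor adaptor, had 8.70 ± 0.15. The 5 below background were the DNA sensor Cgas, at 5.71 ± 0.09, and the Toll-like receptors Tlr3, Tlr4, Tlr7 and Tlr9, which ranged between means of 4.76 and 6.80. None of 6 measured interferon genes was above background on any array. Ifnb1 had 5.05 ± 0.13 and Ifng 5.92 ± 0.24. The alpha interferon genes are near copies of one another, so the values of Ifna4, 4.29 ± 0.52, and Ifna2, 6.20 ± 0.17, may not be specific to those genes.

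Receptors and JAK-STAT genes were the most widely detected of these lists. Of 14 measured, 13 were above background on all arrays, against 43.0% of all named genes. Ifnar1 and Ifnar2, the receptor chains for type I interferon, had 9.99 ± 0.16 and 9.67 ± 0.09, and Ifngr1 and Ifngr2, those for interferon gamma, had 11.84 ± 0.14 and 10.06 ± 0.02. Stat2, the partner of IRF9, had 8.93 ± 0.11. The exception was Usp18, an interferon-induced brake on the type I receptor, with 6.89, 7.43 and 6.96, over the limit only on array 2. Irf7 and Irf9 were highest on that array too, as were 34.6% of all named genes.

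Of 18 measured ISGF3 targets 9 were above background on all arrays and the other 9 stayed under the limit throughout, with a list median of 7.18. Over all named genes the share above background on all arrays was 43.0%. Ifit2 (8.32 ± 0.13), Bst2 (8.60 ± 0.08) and Trim25 (9.55 ± 0.13) were above it, whereas Ifit1 (6.17 ± 0.28), Ifit3 (5.58 ± 0.30), Mx2 (5.69 ± 0.29) and Rsad2 (6.29 ± 0.02) were not. With the 99th percentile as the limit, 6 of 18 were above background, against 35.0% of all named genes. These targets deviated on average by -0.08, 0.10 and -0.02 on arrays 1, 2 and 3, and 10 of 18 were highest on array 2, against 34.6% of all named genes. Irf3, Irf7 and Irf9 shared that array order. So did lists outside the interferon circuit. Mean deviations were -0.14, 0.075 and 0.065 for DP stage genes and -0.025, 0.029 and -0.004 for the other-organ genes. Rtp4, an interferon-induced chaperone of receptors, had 7.86 on array 1 and 8.45 on array 2 (limma, unadjusted p = 0.037, adjusted p = 0.99). Of 14 measured IRF1 and class I targets, 9 were above background on all arrays, against 43.0% of all named genes. The list median was 9.72. Tap1 and Tap2, the peptide transporter, had 9.72 ± 0.11 and 9.97 ± 0.13, Psmb8 of the immunoproteasome had 10.67 ± 0.10 and Nlrc5, the class I transactivator, had 9.85 ± 0.13. The class II transactivator Ciita had 6.11 ± 0.16, and Casp1, Il15 and Gbp3 were likewise above background on no array. The mean deviations of this list were 0.02, -0.01 and -0.01. Its members ran both ways on array 1, where Irf1 was highest: 6 of 14 were highest there, B2m among them with 11.86, 11.48 and 11.75, and 6 of 14 were lowest, Tap1 among them with 9.61, 9.82 and 9.74.

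**Figure D5:**
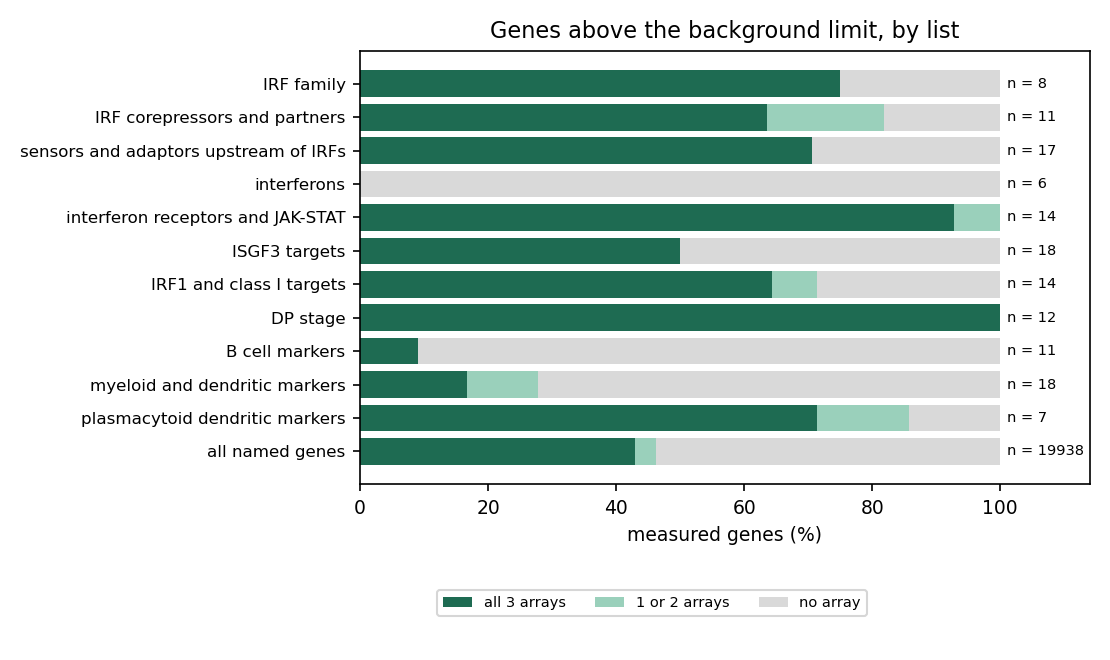
Share of the measured genes of each list that were above the background limit on all 3 arrays, on 1 or 2 arrays, or on none, in percent, with the number of genes at the right. The IRF family stands at 6 of 8 on all arrays, receptors and JAK-STAT genes at 92.9%, interferons at 0%, and all named genes at 43.0%.

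Over the 6 lists of partners, sensors, interferons, receptors and targets, 50 of 80 measured genes were above background on all arrays, against 43.0% of all named genes, and 0 passed the variance test. An unadjusted limma p under 0.05 was found for 4 of the 80, beside 790 of 19938 named genes and 4.66% of all probe sets. They were Traf6, which relays Toll-like receptor signals, with 10.69, 10.25 and 10.23, and Rtp4, Tlr7 and Ifna4, the last 2 with values below background on every array.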

How the data were processed

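The authors deposited a table of log2 values for 35556 probe sets on each array. The R package affy is named in the submitters' processing notes. Its version, its settings and the build used were not given in the sources used here. Since no label states it, the unit was read from the values. Per the labels' protocols, RNA was extracted with TRIzol; they also mention formaldehyde crosslinking ahead of sorting, and whether it applied to the RNA is not stated. The 6612 lowest-numbered probe sets, none with a symbol, were left out as the control block. Gene symbols came from the platform annotation, which gives 21789 probe sets 1 symbol and 1621 several; probe sets with several symbols gave no gene name.

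The members and lists were chosen with earlier results of these data known. A rule set which genes to name: the 8 IRF genes, the first 4 measured of each list and the genes nearest to Irf1. It added list members on the minority side of the limit where these were 5 or fewer. Not all of them are printed, Fos, Jun and Fosb among those left out. Other list genes, such as Rag2 and Nfkbia, were named after their values were seen, and so were the motifs. Of 215 list entries 199 had a probe set of their own. The limma 3.58.1 (R 4.3.3) test used an intercept-only model and an F test of each variance against a robust trended prior. It was tested on simulated data. Other steps used Python 3.11.15 with pandas 2.3.3. Arrays are separate cohorts; 3 arrays limit the precision. Alternatives were 2 normalizations, leaving out each array, 2 background limits, 2 variance priors, a filter on low values and averaging of probe sets.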

Additional observations from a re-analysis of the deposited data

How the results depend on the processing

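No IRF gene passed the variance test under any of the alternatives run, with between 1 and 3 of them at an unadjusted limma p under 0.05; the filter on low values left Irf4 and Irf5 untested. The adjusted p of Irf1 ranged between 0.56 and 0.97. The number of all probe sets past that test was 6. It ranged between 0 and 18 when 1 array was left out, and was 3 with a prior that was not robust, 0 with a robust prior without a trend and 0 with the filter on low values. The unadjusted counts of the last 2 were 1157 and 559. Of 249 alternative values 239 kept their side of the threshold or stayed within 1.5 times or 1 SD of the main value. The others, beside those counts, were the detection of Irf8 and Irf9 at the 99th percentile and the myeloid count, 3 with all arrays, 5 without array 2 and 1 at the 99th percentile; the cause was not tested. Quantile normalization and median centring kept the direction of every difference between arrays for the 8 IRF genes, except that Irf8 was equal on arrays 2 and 3 after centring. Without array 1 its own deviation has no value. The 50 detected genes of the 6 pathway lists became between 44 and 53, and stayed 50 in number without array 1. The mean IRF deviation on array 1, 0.17, was 0.11 when probe sets were averaged, as the second Irf1 probe set entered. No paired analysis was possible because there is 1 group.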
